A study of Mus musculus with 96 samples.

Results

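The microRNA miR-210 was followed through both strands of its hairpin, mmu-miR-210-3p and mmu-miR-210-5p (miR-210-3p and miR-210-5p below), in cells taken from mouse hearts before and after acute myocardial infarction (AMI). The members were the rows carrying these names in the tables of mature miRNA counts, which gave 2 of the 1978 mature sequences listed, 1561 of which had a count in any library. The study collected 96 small RNA libraries from male C57Bl/6J mice of 12 to 14 weeks, with 4 libraries in each of 24 groups. A group was 1 of 4 cell fractions, cardiomyocytes (CM), endothelial cells (EC), fibroblasts (FB) or hematopoietic cells (HC), at 1 of 6 times. D0 hearts came from control mice without infarction, and D1, D3, D7, D14 and D28 hearts came from mice that many days after permanent ligation of the left anterior descending coronary artery. Hearts were digested with collagenase. CMs were spun down at low speed, HCs were captured on beads against CD45 and ECs on beads against CD144, and FBs were the remaining cells that adhered to a dish. Each library combined the RNA of 3 mice, or of 2 in some cases. No sham operation is described for the control mice, so surgery and infarction cannot be told apart.

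miR-210 is the microRNA best known for its response to low oxygen. The transcription factor HIF1A, which is stabilized when oxygen falls, binds near the miR-210 gene and raises its transcription. The 3p strand is the one usually loaded into Argonaute, the protein that carries a microRNA to its target messages. Its known targets include the iron-sulfur cluster scaffold Iscu, through which it lowers mitochondrial respiration, and the ephrin ligand Efna3, through which it is tied to blood vessel growth. Coronary ligation cuts the oxygen supply to part of the left ventricle.

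The mature sequences are given because every count below belongs to one of them, and the capitals mark the seed, bases 2 to 8, which a microRNA uses to pair with its targets.
miR-210-3p: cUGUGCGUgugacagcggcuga
miR-210-5p: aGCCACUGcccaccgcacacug
Neither seed was shared by any of the other 1678 mature mouse sequences compared, and the nearest other sequence was 7 edits away for either strand. Neither strand had the same counts as any other row, so reads of miR-210 were not split with a close relative. The hairpin is shown to place the strands in their precursor, with the 5p strand (bases 28 to 49) and the 3p strand (bases 66 to 87) in capitals.
mir-210 hairpin: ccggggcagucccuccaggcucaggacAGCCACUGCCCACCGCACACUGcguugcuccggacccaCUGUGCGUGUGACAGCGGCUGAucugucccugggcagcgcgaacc
The sequences are those of RefSeq on GRCm38.p6, where the hairpin of 110 bases lies on the minus strand at chr7:141221384-141221493. It overlapped 0 annotated genes and lay 2725 bases from the protein-coding gene Rassf7 and 7290 bases from the protein-coding gene Phrf1, both on the plus strand.

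Library depth, the total of mature miRNA counts, ran from 525651 to 65588543 in 95 libraries, and 1 HC library at D0, replicate 3, held 18286 counts, so its values rest on few reads. The paper removed 1 small RNA replicate each of EC D28, FB D0 and HC D0 as outliers, and its text does not number them. From its paired total RNA libraries, which were not used here, it removed 2 replicates of FB D3 and 1 of HC D28. Only in EC D28, FB D0 and HC D0 was the small RNA library farthest from its group looked for. It was EC D28 replicate 2, FB D0 replicate 2 and this HC library. Cell types were prepared in batches of their own, with 14 PCR cycles for CM, 16 for EC and 15 for FB and HC, so cell type and batch cannot be told apart. Each fraction was checked by summed CPM (counts per 1e6 mature counts) of marker miRNAs, all of which were detected in every group. Cardiomyocyte markers, which include miR-1a-3p and miR-133a-3p, reached 603382 to 709040 CPM in CM at D0. Leukocyte markers, which include miR-142a-3p and miR-223-3p, reached 6921 to 10332 CPM in HC at D0 against 51.3 to 154 CPM in CM. Endothelial markers (both strands of miR-126a) reached 174749 to 215247 CPM in EC at D0, and fibroblast markers (miR-199a and miR-214 strands) 40646 to 63149 CPM in FB. Erythroid markers (miR-451a, miR-144-3p and miR-486a-5p) held 761 to 2844 CPM over all D0 libraries. The HC fraction also held 85776 to 132287 CPM of cardiomyocyte markers at D0, more than its leukocyte markers. The EC fraction held 75957 to 134289 CPM of them at D0, so HC and EC values are those of mixed fractions.

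miR-210-3p was detected in all 96 libraries, with 109048 counts in all. It ranged from 2.43 to 759 CPM with a median of 50.8 CPM. It was present in every fraction before infarction and differed over the 6 days in each, with adjusted p = 0.000375 in CM, 1.45e-05 in EC, 0.00206 in FB and 1.79e-11 in HC (edgeR quasi-likelihood F test, Benjamini-Hochberg over all miRNAs tested in that fraction). Such differences were common, since 73.8% of miRNAs in CM, 58.2% in EC, 68.2% in FB and 73.5% in HC passed the same test. The HC value ranked 6 of 608 miRNAs, the EC value 51 of 421, the CM value 150 of 484 and the FB value 230 of 563. Changes below are log2 fold changes of counts scaled by TMM, a factor that sets aside the miRNAs that dominate or move most, and they were called at an adjusted p under 0.05. Where the scaling mattered, the change scaled by library depth alone is given as well. In a sorted fraction, a change in the number of cells that hold miR-210 and a change in its amount per cell cannot be told apart.

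**Figure D1:**
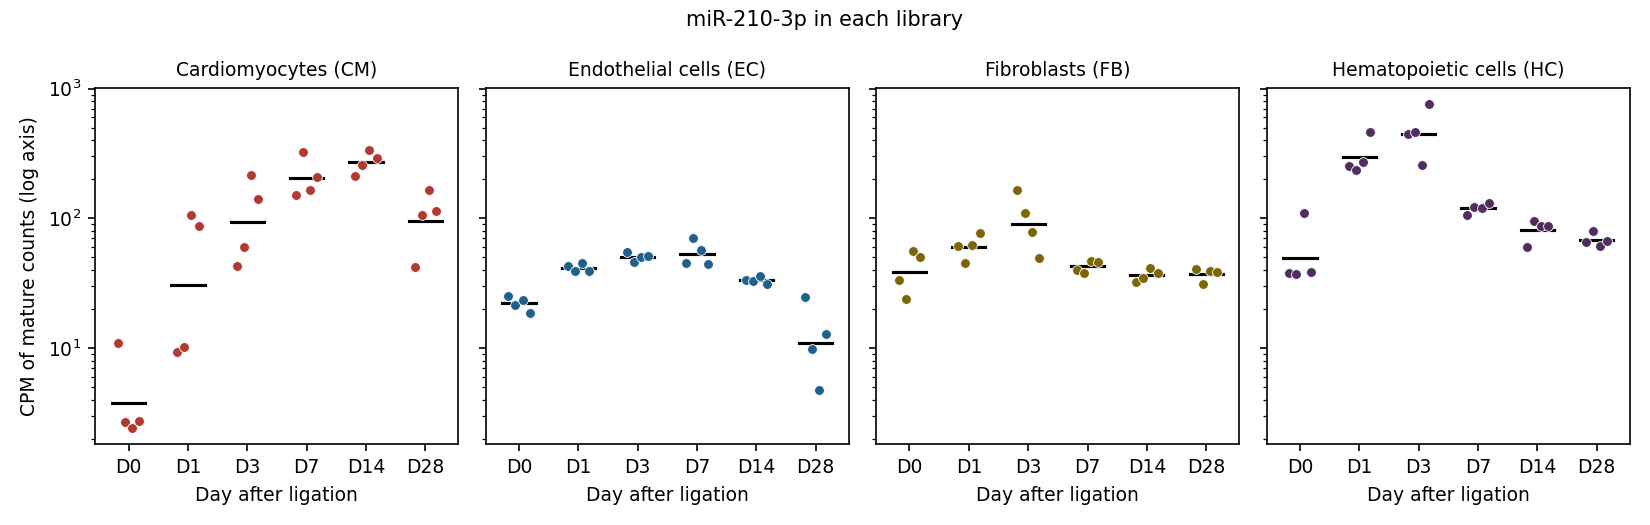
miR-210-3p in CPM (log axis) for each cell fraction and day, with points for the 4 libraries and a bar for their geometric mean. HC libraries reach 759 CPM at D3, CM libraries go from 2.43 CPM at D0 to 339 CPM at D14, and FB libraries from D7 to D28 sit between 31.4 and 47.0 CPM.

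In CM, the contractile cells of the heart, miR-210-3p rose from a level at D0 that was, in plain CPM, the lowest of any fraction to its CM maximum at D14. The 4 CM libraries at D0 held 10.9, 2.69, 2.43 and 2.75 CPM, on 114, 38, 39 and 36 counts. At D1 they held 9.31, 10.2, 107 and 87.4 CPM, so a pair of libraries lay within the D0 range and a pair lay far above it. At D3 they held 42.6, 60.0, 216 and 141 CPM. All 4 libraries at D3 were above all 4 at D0, but they differed among themselves by several-fold. D7 libraries held 152, 324, 165 and 210 CPM, D14 libraries 212, 256, 339 and 290 CPM, and D28 libraries 42.0, 107, 165 and 113 CPM. None of these overlapped D0. The share for which the same held was taken over the 211 miRNAs averaging at least 10 CPM in CM. In plain CPM it was 75.4% on D3, 76.8% on D7, 81.0% on D14 and 73.0% on D28, and after TMM scaling 30.8% on D14.

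The log2 fold change of miR-210-3p in CM against D0 was 1.98 ± 0.53 (SE) at D1, a fold of 3.94 (edgeR, adjusted p = 0.0117, 13.6% of 484 miRNAs called higher). It was 2.64 ± 0.55 at D3 (adjusted p = 0.000358, 31.8% called higher in edgeR) and 3.19 ± 0.56 at D7 (adjusted p = 3.63e-05, 38.8% called higher). The D14 change of 3.30 ± 0.56, a fold of 9.84, was the largest (edgeR, adjusted p = 2.69e-05, 38% called higher). At D28 the change was still 2.70 ± 0.55 (edgeR, adjusted p = 0.000342, 29.5% called higher). Among all tested miRNAs these changes ranked 31 to 49 from the top. No step between consecutive days after D1 was called, from 0.66 ± 0.51 for D3 against D1 to -0.60 ± 0.50 for D28 against D14, so neighbouring days after D1 did not differ beyond their spread. The D1 call was not firm. It was lost without replicate 3 of D1, where the change was 1.47 (edgeR, adjusted p = 0.0667), and with all libraries kept when only D0 and D1 were fitted, where it was 2.14 (adjusted p = 0.0860).

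The size of the CM change depended on the scaling, and its direction was the same under each. With library depth alone it was 3.52, 4.63, 5.52, 5.88 and 4.53 from D1 to D28, and the median of all miRNAs tested then moved too, by 1.42, 2.37, 2.67, 2.99 and 1.99. With TMM those medians were 0.20 to 0.44. At D14, 402 of 484 miRNAs were then called higher and 22 lower, against 184 and 141 with TMM. The TMM factors of CM libraries were 0.289 to 0.357 at D0 and 1.91 to 2.04 at D14. Cardiomyocyte markers took up 311247 to 419381 CPM at D14, below their sum at D0, but the members went different ways. With library depth alone 3 of the 4 were called higher at D14 and 1 lower, with a median change of 3.72. Endothelial markers went from 4423 to 9789 CPM at D0 to 19277 to 27651 CPM. Fibroblast markers went from 36.5 to 114 CPM at D0 to 1358 to 2188 CPM, and leukocyte markers from 51.3 to 154 CPM to 332 to 404 CPM. Reads without a mature match made up 29.0% to 42.0% of CM libraries at D0 and 48.8% to 83.0% at D14. The part of these in the CM change of miR-210-3p was not tested.

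In HC, the fraction of blood-derived cells, miR-210-3p rose early and strongly, was highest at D3 and dropped between D3 and D7. The D0 libraries held 37.7, 37.3, 109 and 38.6 CPM, and the value of 109 CPM is the library of 18286 counts, in which it stands on 2 counts. The other 3 held 37.9 ± 0.678 CPM (SD, n = 3). At D1 the libraries held 254, 236, 273 and 461 CPM and at D3 447, 466, 258 and 759 CPM, all above every D0 library. On either day the same held for 24.6% of the 313 miRNAs averaging at least 10 CPM in HC. Levels then came down to 106, 122, 121 and 131 CPM at D7. At D14 they were 60.4, 96.1, 86.6 and 86.9 CPM and at D28 65.3, 79.3, 60.9 and 66.5 CPM. With the library of 18286 counts kept, the groups of D7, D14 and D28 each overlapped D0. All their libraries were above the other 3 D0 libraries, and the share of all miRNAs for which this held was not counted.

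Against D0, miR-210-3p in HC changed by 2.53 ± 0.25 on the log2 scale at D1, a fold of 5.79 (edgeR, adjusted p = 9.43e-09, 25.3% of 608 miRNAs called higher). At D3 it changed by 3.07 ± 0.26, a fold of 8.42 and rank 17 from the top (edgeR, adjusted p = 2.46e-10, 30.9% called higher). The change was 1.22 ± 0.24 at D7 (edgeR, adjusted p = 0.000163, 29.9% called higher) and 0.74 ± 0.24 at D14 (adjusted p = 0.0209, 15.3% called higher). At D28 it was 0.50 ± 0.23 and was not called (edgeR, adjusted p = 0.132, 12.7% called higher), but it was called with library depth alone (0.81, adjusted p = 0.0192) and with only D0 and D28 fitted (0.77, adjusted p = 0.0018). With library depth alone the D3 change was 3.64, the median of all miRNAs 0.54, and 281 miRNAs were called higher and 109 lower, against 188 and 171 with TMM. At D1 the calls went from 154 higher and 176 lower to 228 and 98. The D14 call was lost when any 1 of 5 libraries was left out, with adjusted p up to 0.0688. Those were replicates 1, 2 and 4 of D0, with changes of 0.69, 0.72 and 0.76, and replicates 2 and 4 of D14, with 0.68 and 0.65. Without the shallow library the changes at D1, D3, D7, D14 and D28 were 2.56, 3.10, 1.24, 0.76 and 0.53.

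The drop from D3 to D7 in HC was -1.86 ± 0.22, rank 607 of 608 from the top, so only 1 miRNA had a more negative value (edgeR, adjusted p = 1.94e-06, 8.88% called lower). The steps from D1 to D3 (0.54 ± 0.21), from D7 to D14 (-0.48 ± 0.22) and from D14 to D28 (-0.24 ± 0.21) were not called. Leukocyte markers in HC went from 6921 to 10332 CPM at D0 to 18361 to 25848 CPM at D1, 14784 to 25203 CPM at D3 and 8361 to 12280 CPM at D28. Cardiomyocyte markers in HC fell to 38493 to 64736 CPM at D3, when all 4 of them were called lower, and endothelial markers went from 54905 to 91837 CPM to 14781 to 21541 CPM. The make-up of the HC fraction thus moved on the same days as miR-210-3p, and its part in the change was not tested.

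In EC, which line the vessels, miR-210-3p rose moderately by D3 and D7 and was called lower than control at D28, a call that depended on the fit. D0 libraries held 25.4, 21.6, 23.3 and 18.5 CPM and D1 libraries 42.9, 39.3, 45.6 and 39.4 CPM. At D3 they held 55.3, 46.2, 50.04 and 51.3 CPM and at D7 45.2, 69.9, 56.5 and 44.8 CPM. No library of D1, D3 or D7 overlapped D0, and those of D14, at 33.7, 33.0, 36.2 and 31.3 CPM, did not either. Of the 263 miRNAs averaging at least 10 CPM in EC, 7.22% lay above D0 in this way on D1, 29.3% on D3, 33.5% on D7 and 33.8% on D14. At D28 the libraries held 24.7, 9.84, 4.72 and 12.8 CPM, on 13, 18, 3 and 50 counts, and the highest of them lay within the D0 range.

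The EC change was 0.89 ± 0.26 at D1 and was not called in edgeR, in which no miRNA of 421 was called at that day (adjusted p = 0.140, 0% called higher). DESeq2 did call it, with 0.84 (adjusted p = 0.00203), and so did edgeR fitted on D0 and D1 alone, with 0.87 (adjusted p = 0.0160). At D3 the change was 1.17 ± 0.25, a fold of 2.24 (edgeR, adjusted p = 0.00131, 15.4% called higher), and at D7 0.90 ± 0.25 (adjusted p = 0.00678, 17.8% called higher). At D14 it was 0.39 ± 0.25 (edgeR, adjusted p = 0.337, 11.4% called higher). At D28 it was -0.72 ± 0.28, a fold of 0.605 (edgeR, adjusted p = 0.0365, 20.2% called lower). The D28 call was lost when any 1 of 4 libraries was left out, replicates 1 or 3 of D0 (-0.68 and -0.66) or replicates 2 or 3 of D28 (-0.70 and -0.49). The last gave the highest adjusted p, 0.113 (edgeR), and replicate 3 of D28 had only 3 counts of miR-210-3p. The call was also lost with no filter on low counts (-0.97, adjusted p = 0.0505), with only D0 and D28 fitted (-0.82, adjusted p = 0.105) and with the replicate number as a block (-0.71, adjusted p = 0.0517 in edgeR). Of the consecutive steps, only D28 against D14 was called, at -1.12 ± 0.28 (edgeR, adjusted p = 0.00709, 11.4% called lower). Fibroblast markers in EC went from 2016 to 2845 CPM at D0 to 6872 to 11141 CPM at D7. Cardiomyocyte markers in EC went from 75957 to 134289 CPM at D0 to 21003 to 80702 CPM at D28. At D28 endothelial markers held 103768 to 224231 CPM, against 174749 to 215247 CPM at D0, and erythroid markers 1888 to 4246 CPM against 1058 to 2012 CPM. Reads without a mature match made up 66.0% to 77.5% of the D28 libraries and 48.5% to 67.3% of those of D0, and 416 to 536 miRNAs were detected at D28 against 574 to 808. The part of these in the EC changes was not tested.

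In FB, the matrix-producing cells, miR-210-3p was called higher at D3 and had returned to the D0 range by D7. D0 libraries held 33.6, 23.9, 55.6 and 50.4 CPM, D1 libraries 61.1, 45.0, 62.8 and 77.1 CPM and D3 libraries 165, 110, 77.9 and 49.2 CPM. The D3 libraries were more than 3 times apart, and the lowest lay within the D0 range. D7 libraries held 40.3, 37.6, 47.0 and 46.0 CPM, D14 libraries 32.2, 34.6, 41.3 and 38.1 CPM, and D28 libraries 40.8, 31.4, 38.9 and 38.2 CPM. All 12 of these lay between the lowest and the highest D0 library.

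The FB change was 0.39 ± 0.27 at D1 (edgeR, adjusted p = 0.383, 5.86% of 563 called higher) and 0.93 ± 0.27 at D3, a fold of 1.90 (adjusted p = 0.00685, 22.9% called higher). It ranked 113 of 563 from the top. The step from D1 to D3, 0.53 ± 0.26, was not called (edgeR, adjusted p = 0.138), and 3 of the 4 D1 libraries were above all D0 libraries in plain CPM. Without FB D0 replicate 2, the library farthest from its group, the D3 change was 0.81 (edgeR, adjusted p = 0.0185). With library depth alone it was 1.28, the median of all miRNAs 0.38, and 204 miRNAs were called higher and 50 lower, against 129 and 113 with TMM. The changes of -0.18, -0.21 and -0.02 at D7, D14 and D28 were not called, with adjusted p from 0.586 to 0.988 in edgeR. The drop from D3 to D7, -1.11 ± 0.27, was called (edgeR, adjusted p = 0.00266, 15.6% called lower). Fibroblast markers in FB held 40646 to 63149 CPM at D0 and 59771 to 88869 CPM at D3, and leukocyte markers 229 to 245 CPM and 234 to 388 CPM.

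**Figure D2:**
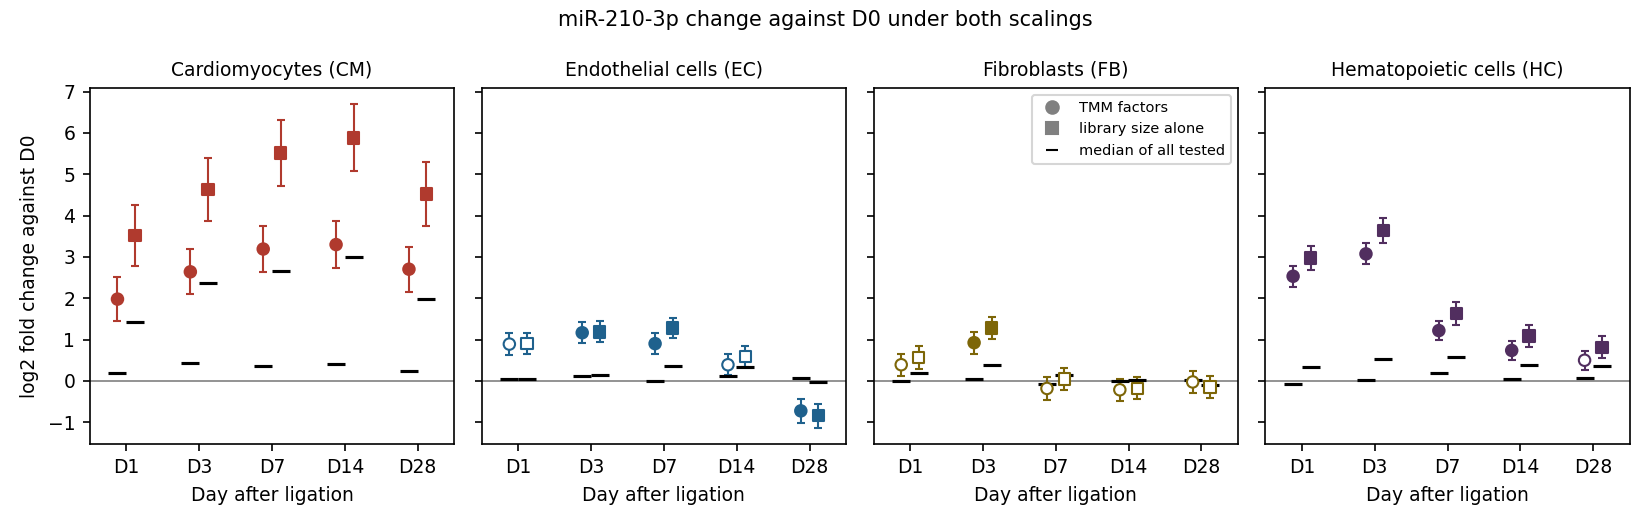
Log2 fold change of miR-210-3p against D0 by day in each fraction, with circles for TMM scaling and squares for library depth alone, bars for the standard error, filled symbols for an adjusted p under 0.05, and black dashes for the median of all miRNAs tested. HC peaks at 3.07 at D3 and CM at 3.30 at D14 on the TMM scale, and the FB change passes the threshold at D3.

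A test that looks at miR-210-3p alone was run on the 4 libraries of a day against the 4 of D0, as a two-sided exact permutation test of mean log2 CPM with 0.5 added to each count. With 70 arrangements its smallest p is 0.0286. That value was reached in 10 of 20 comparisons, CM from D3 to D28, EC from D1 to D14 and HC at D1 and D3. Adjusted over the 20 comparisons it became 0.0571, so none was under 0.05 after adjustment. On the TMM scale EC at D14 gave 0.0857 and overlapped D0. Of the changes called in edgeR, FB at D3 and CM at D1 both gave an exact p of 0.0857, HC at D7 and EC at D28 both gave 0.143, and HC at D14 gave 0.20. The HC tests include the D0 library of 18286 counts, at 109 CPM, and no D7 or D14 library lay above all 4 of D0. The test was not run without that library.

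The time course differed between fractions when the change in one was set against the mean change of the other 3 in 1 fit of all 96 libraries. From D1 to D28 the excess in CM was 1.16 ± 0.42, 1.405 ± 0.42, 2.91 ± 0.43, 3.31 ± 0.43 and 3.05 ± 0.43 (SE). Their adjusted p in edgeR were 0.0364, 0.00455, 1.57e-08, 4.42e-10 and 8.02e-09, and 15.9%, 27.9%, 28.2%, 26.5% and 23.9% of 712 miRNAs were called higher in CM on those days. The D1 excess was not called with the pool as a block (0.95, adjusted p = 0.123 in edgeR) or in DESeq2 (0.63, adjusted p = 0.287). The D3 excess was not called in DESeq2 either (0.86, adjusted p = 0.0862). The excess in HC was 1.21 ± 0.43 at D1 and 1.29 ± 0.43 at D3 (edgeR, adjusted p = 0.0265 and 0.0138), where 6.88% and 6.46% of miRNAs were called higher. On later days the HC change did not differ from the mean of the others beyond its spread, at -0.26, -0.43 and -0.09.

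The EC change lay below that of the other fractions by -1.35 ± 0.42 at D3 and -2.03 ± 0.46 at D28 (edgeR, adjusted p = 0.0172 and 0.000208, with 9.41% and 22.5% called lower). The D3 value missed the threshold without EC D0 replicate 3 (adjusted p = 0.0556 in edgeR). The FB change lay below by -1.34 ± 0.41 at D3, -2.001 ± 0.41 at D7 and -1.76 ± 0.41 at D14 (edgeR, adjusted p = 0.0234, 9.91e-05 and 0.000703, with 2.95%, 20.2% and 18.5% called lower). On the TMM scale the CM change thus lay above the mean of the others from D3 to D28, and the HC change did so on D3. The calls at D1 were less firm. That of CM was lost in 18 of 32 fits that left out 1 library, down to 0.63 without CM D1 replicate 3 (edgeR, adjusted p = 0.351), and that of HC was lost without CM D0 replicate 1 (0.99, adjusted p = 0.0596). On library depth alone the late CM excess was larger, 5.40 at D14, and the HC excess at D1, 1.29, missed the threshold (edgeR, adjusted p = 0.0547).

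Levels could be ordered between fractions only with the scaling named. Before infarction CM held 4.68 ± 4.12 CPM (SD, n = 4), EC 22.2 ± 2.90, FB 40.9 ± 14.7 and HC 55.8 ± 35.7 CPM. In plain CPM every CM library lay below every EC, FB and HC library, and the 3 exact permutation tests gave the smallest p, 0.0286. The share of all miRNAs that lay so between fractions was not counted. Cardiomyocyte markers took up 603382 to 709040 CPM of the CM libraries at D0, so a low CM level in plain CPM need not be particular to miR-210-3p. After TMM scaling no pair of fractions was called at D0 in edgeR, with CM at 0.34 above EC, 0.27 below FB and 0.12 above HC on the log2 scale, although 54.5%, 60.7% and 57.3% of all miRNAs did. FB was 0.61 above EC, HC 0.22 above EC and FB 0.39 above HC, where 53.4%, 43.7% and 55.1% of miRNAs differed. The values of CM rested on replicate 1 of D0, the library at 10.9 CPM. Without it the difference of CM was -0.35 against EC and -0.56 against HC, neither called, and -0.96 against FB, which was called (edgeR, adjusted p = 0.0284). The exact permutation test was not used on the TMM scale here. Its TMM factors were set within each fraction and do not scale fractions against each other, so it cannot order them. As a mean over the 6 days the order on the TMM scale was CM, HC, FB and EC, and each neighbouring pair was called, at 1.38, 0.74 and 0.47 (edgeR, adjusted p of the last 0.00351). Called pairs were the rule here, with 77.7%, 85.7% and 71.8% of miRNAs called for these 3 pairs. With library depth alone CM came below HC, at -0.75, and the pair HC and FB and the pair FB and EC kept their order.

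miR-210-5p, the strand that is usually degraded, was rare. It had 1659 counts in all, a median of 8 counts in a library, 14 libraries at 0 and 31 with at most 3 counts. The 3p strand took 99.5% of the counts of both strands in CM, 98.6% in EC, 98.9% in FB and 97.5% in HC. Only in HC was the 5p strand deep enough to follow by day.

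In HC the 5p strand rose with the 3p strand. D0 libraries held 34, 23, 0 and 11 counts, which were 1.29, 0.833, 0 and 0.373 CPM, and the count of 0 in the shallow library allows up to 164 CPM at 3 counts. At D1 the libraries, with 46 to 198 counts, held 13.9, 13.0, 9.82 and 20.2 CPM. At D3 they held 11.4, 7.68, 8.99 and 10.2 CPM. Every D1 and D3 library was above the 3 deep D0 libraries, most by several-fold, and the shallow library is too shallow to be placed among them. How many other miRNAs lay above the 3 deep libraries was not counted. With all 4 D0 libraries the exact permutation test gave p = 0.143 on both days. Levels were 4.50, 3.42, 3.18 and 2.75 CPM at D7, 0.779, 2.53, 1.51 and 1.43 CPM at D14, and 0.890, 1.82, 1.21 and 0.924 CPM at D28, where both groups overlapped D0.

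The 5p change in HC was 3.67 ± 0.36 at D1, a fold of 12.7 and rank 6 of 608 from the top (edgeR, adjusted p = 8.98e-09). It was 2.99 ± 0.35 at D3 (edgeR, adjusted p = 6.90e-08) and 1.63 ± 0.35 at D7 (adjusted p = 0.000362). The values of 0.55 and 0.25 at D14 and D28 were not called. The steps from D3 to D7 (-1.36 ± 0.30) and from D7 to D14 (-1.08 ± 0.32) were called lower (edgeR, adjusted p = 0.00156 and 0.0188, 10.7% of miRNAs called lower at the latter). Set against the mean of the other fractions, the HC change of the 5p strand was higher by 2.53 at D1 (edgeR, adjusted p = 0.000598), and by 1.26 at D3, which missed the threshold (adjusted p = 0.0663).

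**Figure D3:**
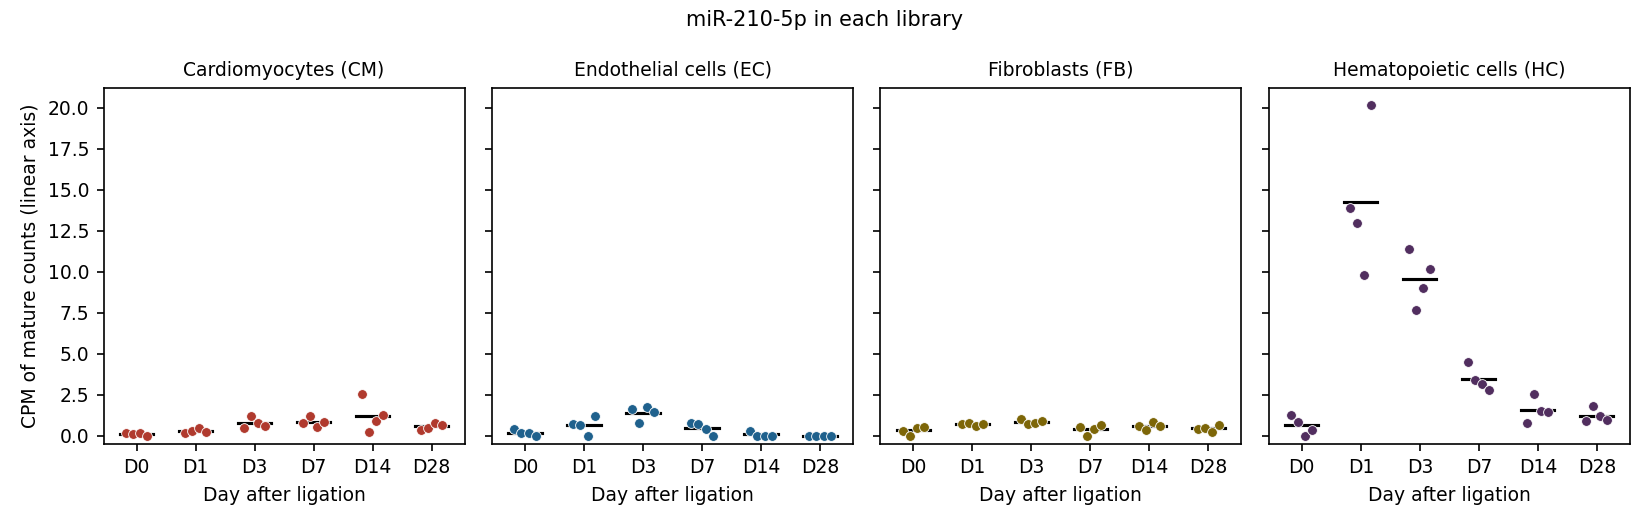
miR-210-5p in CPM (linear axis) for each fraction and day, with points for the 4 libraries and a bar for their mean. HC libraries stand at 9.82 to 20.2 CPM at D1 and 7.68 to 11.4 CPM at D3.

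In the other fractions the 5p strand was too rare for a firm statement. CM libraries held 2, 1, 3 and 0 counts at D0, at most 22 in any later library, and no day was called after TMM scaling, with changes of 0.03 to 0.87. With library depth alone the CM changes at D3, D7, D14 and D28 were 2.72, 2.79, 3.38 and 2.22 and were called. The median of all CM miRNAs then moved by a similar 2.37, 2.67, 2.99 and 1.99. On those days 370, 388, 402 and 336 of 484 miRNAs were called higher. FB libraries held 6, 0, 8 and 7 counts at D0 and 33, 16, 17 and 11 at D1, and no FB day was called after TMM scaling, from -0.16 to 0.76. The FB change at D3 was 1.08 with library depth alone, and was then called (edgeR, adjusted p = 0.0403), as were 204 of 563 miRNAs called higher. EC libraries held at most 22 counts, and the strand did not pass the filter on low counts there. All 4 EC libraries at D28 and 3 at D14 were at 0, which at D28 allows up to 0.769 to 5.71 CPM by library.

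The balance of the strands was compared as log2 of 5p counts over 3p counts, with 0.5 added to both, so that no scaling between libraries enters it. It could be tested in FB and HC, where both strands averaged at least 10 counts. Over the 6 days it did not pass in FB (limma, adjusted p = 0.387, 49.7% of 147 hairpins called) or in HC (limma, adjusted p = 0.273, 15.8% of 152 called). The HC result rested on the shallow D0 library. Without it the ratio differed over the days (limma, adjusted p = 0.0194) and was higher at D1 by 1.23 (adjusted p = 0.0189), the day on which the 3p strand took 94.8% to 96.5% of the strand counts.

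The hairpin tables count reads that matched the mir-210 hairpin, and do not show which bases a read covered. They were read here as reads left over from the match to mature strands, such as trimmed or extended forms, loop or precursor. The sources used here do not state this order, and it was inferred from the tables, whose hairpin total was below the mature total in all 96 libraries. If reads of the mature strands were counted again, the ratios and shares below would have another meaning. They count alignments, at 1.17 to 2.40 alignments a read by library. In CM, whether the hairpin counts rose with miR-210-3p depended on the scaling. In CPM they averaged 77.1 at D0, 271 at D7 and 378 at D14. The raw counts, in libraries of different depth, were 962, 1016, 847 and 1204 at D0. They were 3058, 4066, 4036 and 4791 at D7 and 1575, 1916, 1583 and 5688 at D14. With TMM factors taken from the hairpin counts themselves, the changes from D1 to D28 were -0.01, -0.10, -0.16, -0.12 and 0.12 with an SE near 0.19. None was called, while 17.8%, 31.1%, 38.7%, 39.8% and 27.1% of 354 hairpins were called higher. With library depth alone, here each library's total of hairpin counts, the CM changes were 0.72, 1.03, 0.97, 1.31 and 1.15 and were called. The share of all hairpins called under this scaling was not counted. For mature counts in CM, library depth alone called 287 of 484 miRNAs higher at D1 and 402 at D14, so these hairpin calls need not be particular to mir-210.

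In HC the hairpin counts at D3 were 6949, 26821, 7273 and 6490, against 11801, 11301, 4 and 15519 at D0 in libraries of other depth. The change was 1.11 at D3 (edgeR, adjusted p = 4.67e-05, 34.9% of 475 called higher) and 0.54 at D7 (adjusted p = 0.0296, 29.9% called higher). At D1, when the 3p strand had risen 5.79-fold, the hairpin change was 0.15 and was not called. In EC the hairpin counts rose by 1.24 at D3, 0.93 at D7 and 0.81 at D14 (edgeR, adjusted p = 0.000228, 0.00305 and 0.0175, with 16.5%, 14.6% and 9.97% of 321 called higher). In FB they rose by 0.40 at D7 and 0.50 at D14 (edgeR, adjusted p = 0.0239 and 0.0103, with 29.2% and 11.4% of 456 called higher), but with library depth alone the D7 change was -0.02 and the D14 change, 0.33, was not called (adjusted p = 0.0650 in edgeR). The FB D7 call was also lost with no filter on low counts (0.43, adjusted p = 0.0905 in edgeR) and without FB D0 replicate 1 or FB D7 replicate 2 or 4. The EC D14 call was lost with no filter (0.75, adjusted p = 0.115 in edgeR) and without EC D0 replicate 3 or 4 or EC D14 replicate 4. The HC D7 call was lost without HC D7 replicate 4 (0.47, adjusted p = 0.0772 in edgeR).

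**Figure D4:**
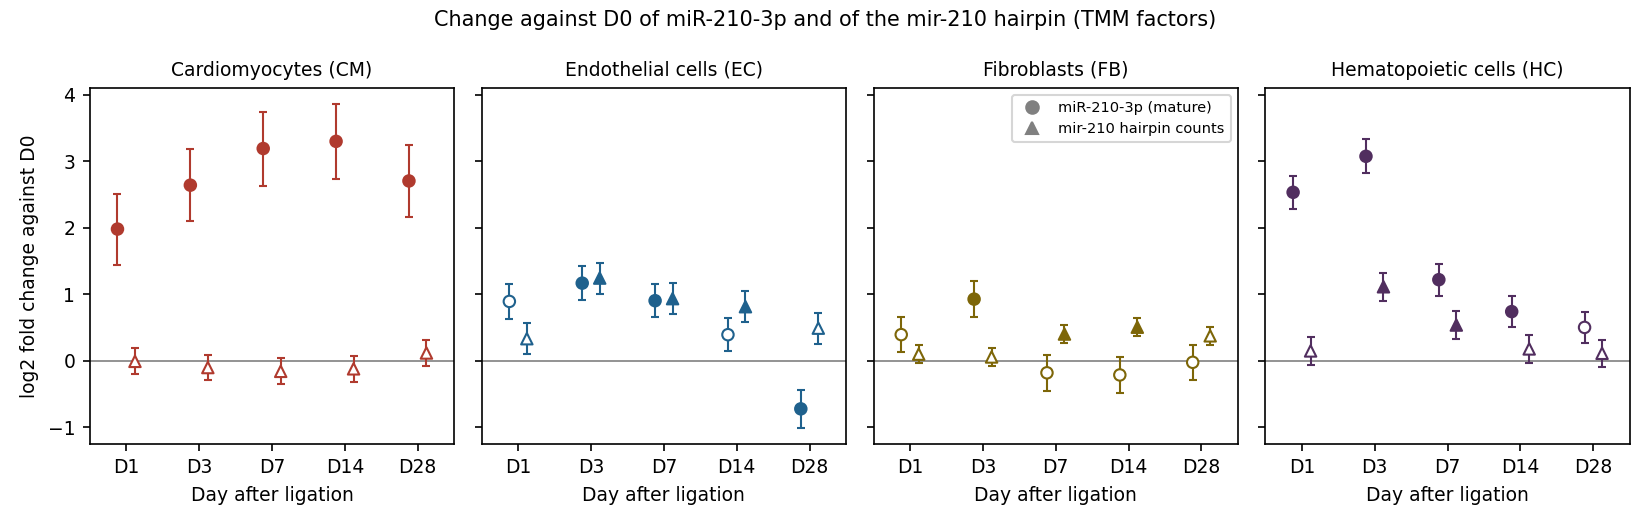
Log2 change against D0 by day and fraction for miR-210-3p (circles) and for the mir-210 hairpin counts (triangles), both after TMM scaling, with standard errors. In CM the 3p strand reaches 3.30 at D14 while the hairpin counts stay between -0.16 and 0.12.

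The log2 ratio of 3p to hairpin counts, which needs no scaling between the strand and its own hairpin, rose in CM by 1.91, 2.97, 3.91, 3.85 and 2.85 from D1 to D28, each with an SE of 0.59. The adjusted p in limma were 0.0279, 0.000455, 2.24e-05, 1.19e-05 and 0.000475, and 10.5%, 24.5%, 28.7%, 30.8% and 26.6% of 143 hairpins were called higher. The ratio of miR-210 ranked 3 to 6 of 143 from the top on these days, where the medians were -0.02 to 0.09. The D1 call was lost without any 1 of 5 libraries (D0 replicates 2, 3 or 4 and D1 replicates 3 or 4), with values as low as 1.38 and adjusted p up to 0.149 (limma).

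In HC this ratio was higher by 1.72 ± 0.41 at D1 and 1.35 ± 0.41 at D3 (limma, adjusted p = 0.00974 and 0.0169, with 4.64% and 12.4% of 194 called higher), rank 4 and rank 5 from the top. Without the shallow D0 library these were 2.41 and 2.04, and the ratio at D7 was 0.63 and called, where it had been -0.06. The D3 call was lost without D0 replicate 1, 2 or 4, down to 1.07 (limma, adjusted p up to 0.0682). In EC the ratio was called at D28 only, at -1.15 ± 0.32 (limma, adjusted p = 0.00882, 12% of 150 called lower). In FB it was 0.71 ± 0.26 at D3 and -0.79 ± 0.26 at D14 (limma, adjusted p = 0.0391 and 0.0427, with 10% called higher and 16.3% called lower of 209). Both FB calls were lost when most single libraries were left out, to values of 0.49 to 1.00 and -0.98 to -0.69. Without FB D0 replicate 2 the D3 value was 0.52.

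As a share of all counts assigned to the strands and the hairpin, the 3p strand took 10.6%, 3.602%, 4.39% and 2.90% in the 4 CM libraries at D0. At D7 the share was 40.5%, 50.1%, 38.9% and 42.6% and at D14 42.0% ± 1.01 (SD, n = 4). In HC it was 7.78%, 8.34% and 6.84% in the 3 deep D0 libraries, 30.3% ± 5.12 at D1 and 10.3% ± 0.826 at D28. The highest share of any library was 30.3% in EC and 20.4% in FB. Since the hairpin counts are alignments, these shares describe the tables and not molecules.

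**Figure D5:**
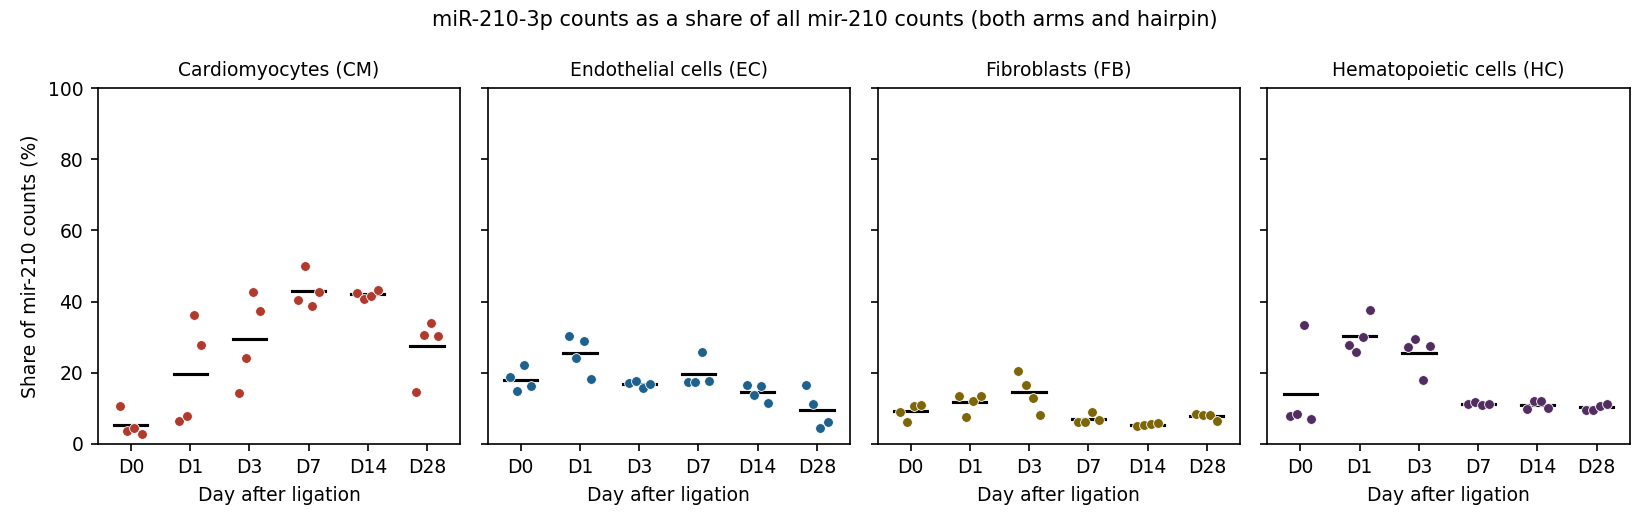
Share of miR-210-3p among all counts of the miR-210 strands and hairpin (percent, from 0 to 100), by fraction and day, with points for libraries and a bar for the mean of 4. CM goes from 5.37% at D0 to 43.0% at D7, and the HC library at 33.3% at D0 is the one with 18286 counts.

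A list of 14 other miRNAs linked to low oxygen was read beside miR-210-3p. It includes miR-21a-5p and the miR-103 and miR-107 pair. In CM 3, 6, 6, 7 and 7 of 14 rose from D1 to D28, where 13.6%, 31.8%, 38.8%, 38% and 29.5% of all miRNAs did. At D3, D7 and D14, 1, 1 and 2 of them fell, where 23.3%, 30.2% and 29.1% of all miRNAs did. The median change was 0.30 to 0.62 on the TMM scale, near the 0.20 to 0.44 of all miRNAs. With library depth alone all 14 were called higher on every day. Of all 484 miRNAs 287, 370, 388, 402 and 336 were then called higher from D1 to D28. In EC at most 1 rose on any day, against 0% to 17.8% of all from D1 to D14, and 7 of 14 fell at D28, against 20.2%. In FB 8 of 14 fell at D3 and 10 at D7, against 20.1% and 21.1% of all miRNAs, and 2 and 1 rose, against 22.9% and 24.5%. With library depth alone 4 were higher and 5 lower at D3, against 204 higher and 50 lower of all 563 miRNAs. In HC 6 of 14 fell at D1 and at D3, against 28.9% and 28.1% of all, and 1 and 2 rose, against 25.3% and 30.9%. With library depth alone 6 were called higher on both days and 1 and 2 lower, so the direction there turns with the scaling. Of all 608 miRNAs 228 and 281 were then called higher and 98 and 109 lower.

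Single members did move with infarction. miR-21a-5p rose in HC on all 5 days, by 0.79, 1.55, 1.66, 1.38 and 1.05, and in CM by 1.13 to 3.11. It rose by 2.34 in EC at D3 and by 1.87 in FB at D3. miR-103-3p and miR-107-3p rose in CM at D14 by 1.53 and 1.72 and were not called in HC on any day. miR-322-5p, which is known to raise HIF1A protein in endothelial cells, rose in CM at D14 by 2.07 and fell in EC at D28 by 1.54 on the log2 scale.

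A list of 6 miRNAs known to target the Hif1a message was read as well, 4 of them from the miR-17 family. In CM 3, 5, 5, 5 and 4 of 6 rose from D1 to D28, against 13.6%, 31.8%, 38.8%, 38% and 29.5% of all miRNAs, and 1 fell at D7 and at D14. The median changes were 1.36, 2.32, 2.38, 1.99 and 1.85, against 0.20 to 0.44 over all. In FB 5 of 6 rose at D1 and at D3, with medians of 1.83 and 2.26, and 1 rose at D7, against 5.86%, 22.9% and 24.5% of all miRNAs. miR-17-5p changed in FB by 1.87 at D1 and 2.27 at D3, and in HC by 1.19 and 1.04. miR-155-5p, a microRNA of activated immune cells, rose in FB by 1.84 to 2.87 on all 5 days and fell in HC at D3 by 0.81. In EC 2 of 6 rose at D3 and 1 at D7, against 15.4% and 17.8% of all, and 4 fell at D28, against 20.2%, miR-17-5p among them at -1.48. In HC 3 rose at D1 and at D3, against 25.3% and 30.9%, and 1 and 2 fell, against 28.9% and 28.1%. Later 4, 2 and 1 rose in HC, against 29.9%, 15.3% and 12.7%. A pair of members are also marker miRNAs, miR-199a-5p of fibroblasts and miR-155-5p of leukocytes.

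The miRNAs whose levels were most like those of miR-210-3p across the 24 group means of log2 CPM (TMM scale, 298 candidates) were miR-135a-5p, with Pearson r = 0.84, miR-135b-5p (0.83), miR-29b-3p (0.81), miR-34a-5p (0.80) and let-7i-3p (0.80). miR-135a-5p and miR-135b-5p are close in sequence and may share reads. After the mean of each fraction was subtracted, they were miR-106b-5p (0.93), miR-15b-5p (0.90), miR-15b-3p (0.89), miR-362-3p (0.89) and miR-30b-5p (0.85). miR-106b-5p rose by 4.33 in CM at D14 and by 2.10 in HC at D3, and miR-362-3p by 5.02 and 1.43. These r are descriptions, since the points share libraries, scaling and the D0 groups.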

How the data were processed

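Small RNA was sequenced by the authors from 96 libraries made with the NEBNext kit. Per the labels and methods, reads were trimmed with Trim Galore, those under 18 nt were removed, and the nf-core small RNA pipeline assigned them to miRBase release 21, with SAMtools, Bowtie2 and build mm10 named in the processing notes. The deposited tables hold raw counts per mature miRNA and per hairpin. All libraries were kept. Reads without a mature match, 25.6% to 83.0% of a library's total, stayed out of depths and tests. Counts of each fraction's 24 libraries were filtered with filterByExpr, scaled by TMM and tested with edgeR's quasi-likelihood test (edgeR 4.0.16, R 4.3.3), with Benjamini-Hochberg adjustment over all miRNAs tested. A fit of all 96 libraries compared fractions. Strand and hairpin ratios were tested with limma 3.58.1, with 0.5 added to counts, over hairpins averaging 10 counts or more for both readouts. Alternatives were DESeq2 1.42.0, library depth alone, no filter, other pseudocounts, replicate blocks, fewer days and leaving out libraries. Exact permutation tests went through all 70 arrangements with Python 3.11.15 and numpy 2.4.6. The scripts were tested on simulated data. A floor of 3 counts stands for the limit of a count of 0; it covers counting error only. Pools of one number at one day may share animals across fractions, since the methods say that fractions came from the same animals without giving pool numbers; deviations of same-numbered libraries had a mean correlation of 0.038 between fractions and 0.0075 between days. The members, the other miRNAs named (the lists and the 5 miRNAs of highest Pearson r on each scale, among those averaging at least 10 CPM) and the marker lists were chosen with earlier results of these data known. Hairpin tests and hairpin ratios were added after the data were seen.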

Additional observations from a re-analysis of the deposited data

Results flagged for a closer look

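Of 48 groups of 4 libraries, 1 library stood apart from the other 3 in 2 groups, where chance gives about 1 in 20. For miR-210-3p in CM at D0, replicate 1 had a log2 CPM of 3.446 (10.85 CPM on 114 counts), against 2.43 to 2.754 CPM in the others. In HC at D0, replicate 3 had a log2 CPM of 7.095 (109.4 CPM on 2 counts), against 37.31 to 38.64 CPM.

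The change of miR-210 against D0 differed between a fraction and the mean of the other 3 in 13 tests of the difference (edgeR). For miR-210-3p, CM lay above by 1.159, 1.405, 2.905, 3.31 and 3.05 from D1 to D28. HC lay above by 1.214 at D1 and 1.286 at D3. EC differed by -1.35 at D3 and -2.03 at D28, and FB by -1.341, -2.001 and -1.762 at D3, D7 and D14. For miR-210-5p, HC lay above by 2.532 at D1.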

How the results depend on the processing

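Over all settings that leave out no single library, 575 of 671 values kept their direction and their side of the threshold and 96 did not. Leaving out 1 library changed 138 of 1864 fits. The rise of miR-210-3p in CM from D3 on, in HC at D1, D3 and D7, in EC at D3 and D7 and in FB at D3 kept its call in every edgeR and DESeq2 setting run. The exact permutation test was less clear, and none of its 20 comparisons passed after adjustment. In it FB at D3 and HC at D7 overlapped D0, HC at D7 only through HC D0 replicate 3. Depth limits the 5p strand and HC D0 replicate 3 most. Where no reason is given, the cause was not tested.

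With library size alone, the 3p difference at D0 was -2.27 for CM against EC, -3.16 for CM against FB and -3.09 for CM against HC, and CM against HC over all days was -0.75. The 3p change of FB at D7 was 0.050, HC at D28 0.81, and EC at D7 against D3 0.095. Against the mean of the others, EC at D1 and D14 was -1.46 and -1.67, FB at D1 and D28 -1.89 and -1.64, and HC at D1 1.29. The 5p change was 2.72, 2.79, 3.38 and 2.22 in CM from D3 to D28 (adjusted p over the days 0.000517 in edgeR), and 1.08 and 0.087 in FB at D3 and D7. The median of all CM miRNAs moved by 2.37, 2.67, 2.99 and 1.99 on those CM days. Hairpin counts gave 0.72, 1.03, 0.97, 1.31 and 1.15 in CM from D1 to D28, 0.76 in EC at D28, -0.22, -0.32, -0.021 and 0.33 in FB from D1 to D14, and -0.18 and 0.47 in HC at D1 and D14. Of the hypoxia-linked list 14 members were called in CM on each day, 1 in EC at D7 and D14, 3 in FB at D1, and 5 and 6 in HC at D14 and D28. Of the Hif1a-targeting list 6 were called in CM at D1, 1 in EC at D14, and 3, 4 and 5 in HC at D3, D14 and D28. Beside both lists, 287 to 402 of all 484 miRNAs were called higher in CM. In EC 97 and 72 of 421 were called higher at D7 and D14, and in FB 62 of 563 at D1. In HC 281, 194 and 183 of 608 were called higher at D3, D14 and D28.

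In DESeq2 the 3p change of EC at D1 was 0.84. Against the mean of the others, CM was 0.63 and 0.86 at D1 and D3, EC -1.08 at D14, FB -1.51 at D1 and HC 0.091 at D7. The 5p change of CM at D1 was -0.033. Hairpin counts gave 0.49 in EC at D28 and -0.030 and -0.021 in FB at D1 and D3. With no filter on low counts the 3p difference of CM and HC at D0 was -0.094, the change -0.97 in EC at D28 and 0.045 in FB at D28, and the difference from the others -1.16 for EC at D14 and -1.51 for FB at D1. Hairpin counts then gave 0.42, 0.26, 0.064 and 0.28 in CM from D1 to D14, 0.75 in EC at D14 and 0.43 in FB at D7. With only the 2 days compared, the 3p call was lost in CM at D1 (2.14) and EC at D28 (-0.82) and gained in EC at D1 (0.87) and HC at D28 (0.77). With a pseudocount of 5 the strand ratio of HC at D1 was -0.20, and the 3p to hairpin ratio of HC at D3 1.23.

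Without the farthest libraries the 3p change of EC at D28 was -0.70, FB against the others at D1 -1.49, the strand ratio over the HC days had adjusted p = 0.0194 (limma), and hairpin counts gave 0.59 in EC at D28 and -0.029 in HC at D28. The 3p to hairpin ratio was then 0.52 in FB at D3 and 0.63, 0.58 and 0.47 in HC at D7, D14 and D28. Replicate numbers were not taken to pair the libraries, since no source ties a number to a pool, and same-numbered libraries all correlated above 0.1 for 1 of 60 pairs of days and 1 of 36 pairs of fractions. This does not show that they share no animals. With the replicate block, the 3p change of EC at D28 was -0.71 (edgeR, adjusted p = 0.0517) and the 3p to hairpin ratio of FB at D14 -0.79 (limma, adjusted p = 0.0510). With the pool as a block, CM against the others at D1 was 0.95 (edgeR, adjusted p = 0.123). No other call changed with either block.

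When single libraries were left out, the 3p change ranged from 1.47 to 2.75 in CM at D1, -1.12 to -0.49 in EC at D28, 0.65 to 0.85 in HC at D14, and -0.32 to 0.00076, -0.21 to 0.19 and -0.30 to 0.033 in FB at D14, D28 and D7. Against the mean of the others it ranged from 0.63 to 1.84 in CM at D1, from -1.28 to -0.88, -1.58 to -1.23 and -1.34 to -1.01 in EC at D1, D3 and D14, from -1.55 to -1.14 and -1.16 to -0.58 in FB at D1 and D28, and from 0.99 to 1.62 and -0.32 to 0.031 in HC at D1 and D28. The D0 difference of CM ranged from -0.35 to 0.60 against EC, -0.96 to -0.0096 against FB and -0.56 to 0.38 against HC, with the lower end of each without CM D0 replicate 1, where CM against FB was called. The 5p change ranged from -0.38 to 0.60 in CM at D1, -0.45 to 0.037 in FB at D7 and -0.087 to 0.66 in HC at D28. Hairpin counts ranged from -0.11 to 0.083 and -0.23 to 0.018 in CM at D1 and D14, 0.75 to 0.87 and 0.15 to 0.62 in EC at D14 and D28, -0.045 to 0.14, 0.34 to 0.49 and 0.31 to 0.46 in FB at D3, D7 and D28, and 0.40 to 0.75 and -0.029 to 0.35 in HC at D7 and D28. The 3p to hairpin ratio ranged from 1.38 to 2.39 in CM at D1, -0.21 to 0.022 and -0.046 to 0.26 in EC at D3 and D7, 0.49 to 1.00 and -0.98 to -0.69 in FB at D3 and D14, and 1.07 to 2.04, -0.34 to 0.63, -0.39 to 0.58 and -0.50 to 0.47 in HC from D3 to D28. The strand ratio of HC ranged from -0.20 to 1.23 at D1, and its adjusted p over the days from 0.0194 to 0.419 (limma).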
